A study of Arabidopsis thaliana with 30 samples.

Results

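The type-A response regulators are 10 Arabidopsis thaliana genes, ARR3 to ARR9 and ARR15 to ARR17, taken by locus from the 38194 loci of the count table. The samples were leaves 1 and 2 detached from 10 d old seedlings of the Columbia-0 ecotype, with the leaves of several plants pooled in each sample. All leaves floated in buffer with Murashige and Skoog salts, 5.0% glucose and 0.2% dimethyl sulfoxide. The mock leaves received nothing else, and the stimulus leaves also received kinetin at 0.5 µg/mL, 2,4-dichlorophenoxyacetic acid at 2.5 µg/mL and bikinin at 20 µM. RNA was sequenced after 6, 7, 8, 9 and 10 h in 3 replicates of each treatment, 30 libraries in all. The stimulus joins a cytokinin (kinetin), an auxin (2,4-dichlorophenoxyacetic acid) and an inhibitor of GSK3 kinases (bikinin), so the share of kinetin in any response cannot be told apart from that of the other agents.

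Cytokinin is sensed by AHK receptor kinases, which pass phosphate through AHP proteins to the response regulators. Type-B regulators are transcription factors, and the type-A genes are among their direct, rapidly induced targets. Type-A proteins carry a receiver domain without a DNA-binding domain and damp cytokinin signalling, so they form a negative feedback. They come in paralog pairs, ARR3 with ARR4, ARR5 with ARR6, ARR7 with ARR15, ARR8 with ARR9 and ARR16 with ARR17, and their transcripts serve as a readout of cytokinin signalling in leaves.

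Type-B regulators bind a short core, AGATT or AGATC, and so the bases just before 4 of the genes are shown, read 5′ to 3′ on the strand of the gene from TAIR10.1 as given by RefSeq. Capitals mark AGATT or AGATC on either strand (AATCT or GATCT when read from the other), and neighbouring or overlapping matches run together. ARR5 had the largest average log2 rise over all libraries, ARR7 and ARR15 are a paralog pair with many and few matches, and ARR16 is rich in matches but responded least among the 7 members other than ARR8 that could be tested.
ARR5 (chr3:17760951-17761200, minus strand): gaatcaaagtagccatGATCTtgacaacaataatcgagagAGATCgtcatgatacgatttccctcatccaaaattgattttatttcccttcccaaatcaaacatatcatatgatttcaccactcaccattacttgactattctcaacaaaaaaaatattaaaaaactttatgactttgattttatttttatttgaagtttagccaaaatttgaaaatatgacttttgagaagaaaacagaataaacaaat
ARR7 (chr1:6579315-6579564, minus strand): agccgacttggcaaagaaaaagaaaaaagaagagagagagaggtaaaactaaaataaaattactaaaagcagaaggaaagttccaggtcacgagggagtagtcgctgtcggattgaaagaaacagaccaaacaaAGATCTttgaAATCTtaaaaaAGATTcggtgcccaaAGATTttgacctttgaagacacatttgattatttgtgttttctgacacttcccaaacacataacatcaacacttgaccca
ARR15 (chr1:28133026-28133275, minus strand): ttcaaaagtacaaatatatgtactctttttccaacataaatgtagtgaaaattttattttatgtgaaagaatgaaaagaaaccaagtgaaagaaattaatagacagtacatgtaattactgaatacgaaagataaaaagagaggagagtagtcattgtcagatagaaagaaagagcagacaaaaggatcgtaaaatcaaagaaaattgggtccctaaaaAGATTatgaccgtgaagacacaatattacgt
ARR16 (chr2:16969423-16969672, plus strand): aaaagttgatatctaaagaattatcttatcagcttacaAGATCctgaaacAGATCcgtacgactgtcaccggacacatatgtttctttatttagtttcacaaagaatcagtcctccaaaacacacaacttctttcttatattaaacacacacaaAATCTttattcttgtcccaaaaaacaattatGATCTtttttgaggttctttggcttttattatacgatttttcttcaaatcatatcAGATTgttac

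In the window from 250 bases before to 50 bases after the annotated gene start, 9 of the 10 members held AGATT, against 69.7% of 27443 promoters of protein-coding genes. In the upstream bases alone AGATT was present in 7 members and in 63.7% of promoters. AGATC was present in 5 members and in 32% of promoters (26.6% in the upstream bases alone, again with 5 members). The longer AAGATT was present in 8 members and in 34.7% of promoters, but in only 5 members when the upstream bases alone were read (30.5% of promoters). ARR7 carried 5 matches to AGATC, a number reached by 0.244% of promoters, and 4 to AAGATT, reached by 0.193%. Its 4 matches to AAGATCT overlap the AGATC matches and lie as overlapping pairs on opposite strands, at -117 and -116 and at 25 and 26. ARR7 was the only member with this motif, which 4.23% of promoters hold. ARR5 had 2 matches to AGATC, at positions -234 and -210 from the start, and none to AGATT; ARR15 had the reverse, 2 matches to AGATT and none to AGATC. ARR16 held 4 matches to AGATT and 3 to AGATC. A match describes letters in this window and is not a measured binding site.

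Total counts per library ranged from 14981271 to 22729166. The columns labelled mock replicate 3 at 6 h and at 7 h were identical at every locus, so there were 29 distinct libraries, 14 mock and 15 stimulus, and that library was counted once in means. Replicate 3 stood apart from replicates 1 and 2 in both treatments, with plastid loci at 0.556 to 0.872% of counts in its 9 libraries against 1.37 to 3.09% in the other 20, so the main results for the members are also given by replicate set. Mock replicate 3 at 8 h stood apart again, for the type-A genes themselves, and results without it are given below. The leaf label was met, with all 5 photosynthesis markers present at a median of at least 1 CPM, a count scaled to library size with TMM factors, in both treatments and both floral organ markers near 0. Of 3 root markers 1 reached that median.

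Of the 10 genes, 8 passed the filter on low counts, the same filter that left 21052 genes in all. ARR5 held 1 to 10 counts in the mock libraries other than replicate 3 at 8 h, and 141 to 616 with stimulus. It thus passed the filter through its stimulus libraries, and counts of members that rose include it. ARR3 (AT1G59940, chromosome 1) had 5 counts in total, 1 count in each of 5 libraries. ARR17 (AT3G56380, chromosome 3) had 3 counts in total, all in stimulus libraries. A count of 0 in a library allows up to 3 counts, that is 0.122 to 0.226 CPM depending on depth, so both genes were at or under what these libraries could detect, and no fold is given for them.

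Stimulated leaves held far more transcript of most type-A genes than mock leaves. Averaged over the 5 times, 6 of the 8 tested members rose, namely ARR4, ARR5, ARR6, ARR7, ARR9 and ARR15, and none fell. Among all 21052 genes tested, 29.7% were called higher (56.7% in either direction). The median log2 fold change of the 8 members was 3.37, against 0.02 over all genes. These calls come from edgeR's quasi-likelihood test at a Benjamini-Hochberg adjusted p under 0.05 over all genes. When the 5 times of a replicate were summed to 1 library, leaving 3 against 3, the test called 2 members (ARR5 and ARR15; 4.56% of genes higher), so the count of 6 rests on treating the hours as separate samples. With the replicate number as a block 7 members rose (36.3% of genes), and 7 rose without mock replicate 3 at 8 h (29.8% of genes). In the 15 mock and stimulus pairs of the same hour and replicate, each of the 6 genes was higher with stimulus in 15 of 15; the pairs of replicate 3 at 6 and 7 h share 1 mock library. Vascular markers moved with them: the summed level of 4 such genes was 109 to 143 CPM in mock and 287 to 389 CPM in stimulus libraries. Of the 4, SUC2, PXY and ATHB8 rose, by 1.28, 1.24 and 2.03 on the log2 scale, and APL was at 0.17 (edgeR adjusted p = 0.264). All 5 photosynthesis markers fell, their sum going from 9150 to 22300 CPM in mock to 5920 to 12800 CPM with stimulus. The part of these shifts in the result was not tested, and in whole leaves a change in the number of cells that express a gene cannot be told apart from a change in transcript per cell.

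**Figure D1:**
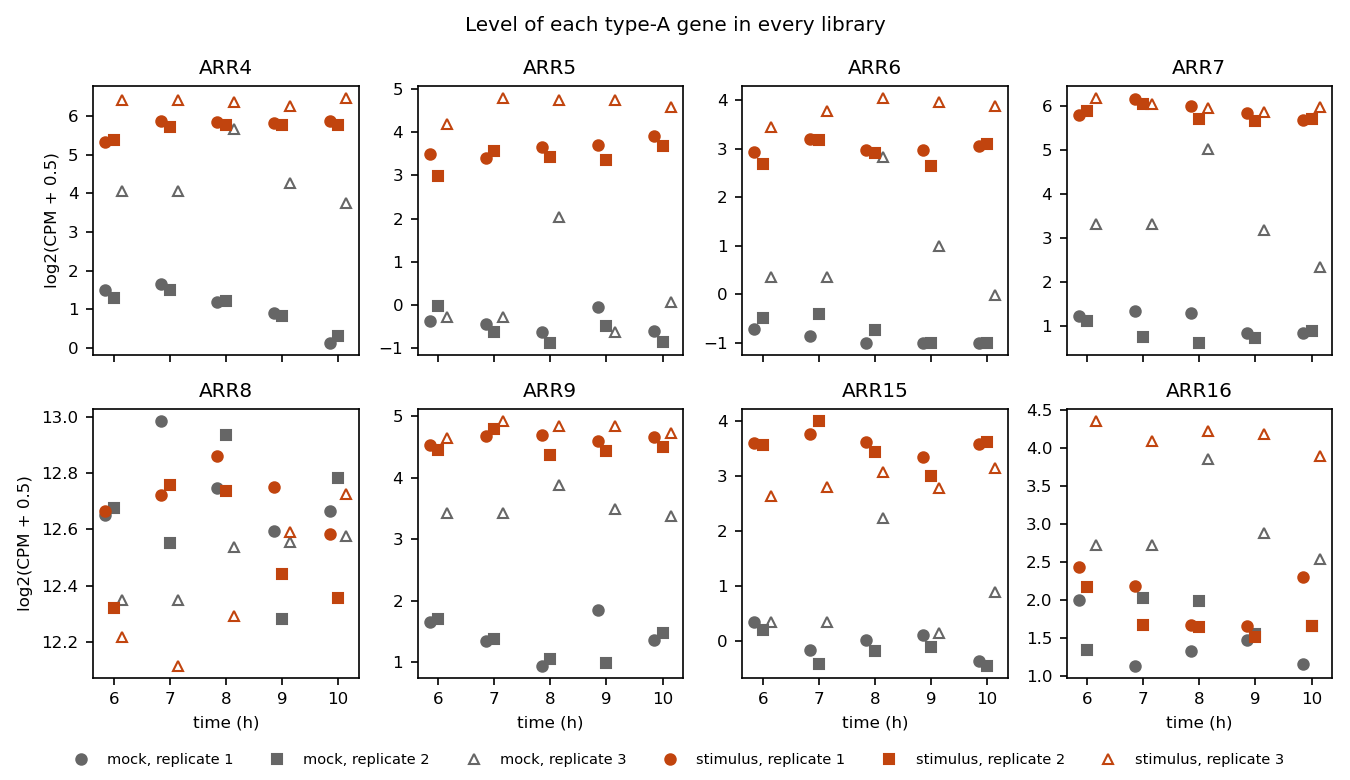
Level of the 8 testable type-A genes in every library, as log2(CPM + 0.5) against time in hours; grey marks mock, orange stimulus, filled circles and squares replicates 1 and 2, open triangles replicate 3, and the identical mock columns appear at both 6 and 7 h. Stimulus libraries lie above mock libraries for ARR4 to ARR7, ARR9 and ARR15 within each replicate set, replicate 3 of mock is raised, and the 8 h mock triangle stands above its neighbours.

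ARR5 (AT3G48100, chromosome 3, minus strand), whose promoter is widely used as a cytokinin reporter, showed the largest average log2 rise over all libraries. In mock replicates 1 and 2 it was barely detected, at 0.0476 to 0.484 CPM with a median of 0.187. Stimulus brought it to 7.44 to 14.5 CPM with a median of 11.1 in the same replicates. In replicate 3 the mock libraries held 0.321, 3.58, 0.15 and 0.549 CPM (6 and 7 h as 1 library, then 8, 9 and 10 h). The 5 stimulus libraries of replicate 3 held 17.7, 27.1, 26.5, 26.3 and 23.6 CPM from 6 to 10 h. All 15 stimulus values lay above all 14 mock values. The average log2 fold change was 5.32 ± 0.41 (SE, edgeR adjusted p = 3.89e-10).

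ARR6 (AT5G62920, chromosome 5, minus strand), the paralog of ARR5, was close to absent from mock leaves. Its mock libraries of replicates 1 and 2 held 14 counts in all, with 5 of the 10 at 0 and a highest value of 0.248 CPM. With stimulus the same replicates reached 5.77 to 8.73 CPM, median 7.33. Mock replicate 3 held 0.488 to 6.65 CPM and stimulus replicate 3 held 10.5 to 16 CPM, so the groups did not overlap within either set but did across sets. The average log2 fold change was 4.39 ± 0.59 (SE, edgeR adjusted p = 1.43e-06). ARR6 shares 348 bases with AT5G62910 on the opposite strand; that locus held at least 115 counts in every library, including the 5 in which ARR6 was at 0.

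ARR7 and ARR15, paralogs known in Arabidopsis as regulators of stem cells in the shoot apex, also rose. ARR7 (AT1G19050, chromosome 1, minus strand) was at 1.05 to 2.04 CPM (median 1.33) in mock replicates 1 and 2 and at 50.6 to 71.8 CPM (median 56.4) with stimulus. In replicate 3 mock it reached 4.58 to 32.1 CPM, and with stimulus 58.1 to 72.3 CPM. Treated and mock libraries did not overlap in any replicate, and the average log2 fold change was 3.74 ± 0.45 (SE, edgeR adjusted p = 3.03e-07). ARR15 (AT1G74890, chromosome 1, minus strand) went from 0.228 to 0.767 CPM in mock replicates 1 and 2 (median 0.406) to 7.52 to 15.4 CPM (median 11.6). Replicate 3 held 0.602 to 4.22 CPM in mock and 5.66 to 8.37 CPM with stimulus. Its groups did not overlap either, and the average log2 fold change was 3.78 ± 0.3 (SE, edgeR adjusted p = 6.51e-10).

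ARR4 (AT1G10470, chromosome 1, minus strand), a regulator that binds phytochrome B in Arabidopsis, and ARR9 (AT3G57040, chromosome 3, plus strand) rose from the higher mock levels of replicate 3 as well as from the low ones of replicates 1 and 2. ARR4 lay at 0.598 to 2.63 CPM (median 1.79) in mock replicates 1 and 2 and at 39.5 to 57.8 CPM (median 53.8) with stimulus. In replicate 3 its mock libraries held 16.3, 50.6, 18.7 and 13 CPM and its stimulus libraries 84.2, 84.7, 82.5, 76.8 and 87.6 CPM. The 8 h mock library of replicate 3 thus overlapped the stimulus range of replicates 1 and 2. The average log2 fold change of ARR4 was 3.01 ± 0.56 (SE, edgeR adjusted p = 8.56e-05). ARR9 went from 1.42 to 3.1 CPM (median 2.07) to 20.1 to 27.2 CPM (median 23.3) in replicates 1 and 2, and from 9.83 to 14.3 CPM to 24.5 to 29.7 CPM in replicate 3. No mock library of ARR9 reached a stimulus library, and the average log2 fold change was 2.29 ± 0.36 (SE, edgeR adjusted p = 1.18e-05).

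Over all distinct libraries, 4 of the 8 tested members (ARR5, ARR7, ARR9 and ARR15) had every stimulus value above every mock value, as did 3.71% of all genes tested. Since ARR5 passed the count filter through its stimulus libraries, its place in these counts is not separate support. Within replicates 1 and 2 this held for 6 of 8 members and 11.3% of genes, and within replicate 3, with 4 mock and 5 stimulus libraries, for 7 of 8 members and 27.8% of genes.

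ARR16 (AT2G40670, chromosome 2, plus strand), a member with a short C-terminal tail, behaved differently in the replicate sets. In replicates 1 and 2 its level was 1.7 to 3.57 CPM in mock (median 2.36) and 2.36 to 4.94 CPM with stimulus (median 2.68), and stimulus was the higher in 6 of 10 pairs. In replicate 3 the mock libraries held 6.1, 14, 6.92 and 5.31 CPM and the stimulus libraries 20, 16.7, 18.3, 17.8 and 14.5 CPM, without overlap. The average log2 fold change over all libraries was 0.95 ± 0.44 and did not pass the edgeR test (SE, adjusted p = 0.0685). With the replicate number as a block it was 0.7 ± 0.17 and passed (edgeR adjusted p = 0.000864). With the counts summed over times it did not pass, at 0.62 ± 0.26 with the block (edgeR adjusted p = 0.15) and 0.88 ± 0.82 without (edgeR adjusted p = 0.521). Without the identical columns it also passed, at 1.14 ± 0.47 (edgeR adjusted p = 0.0462), as it did without mock replicate 3 at 8 h, at 1.2 ± 0.44 (edgeR adjusted p = 0.0238).

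ARR8 (AT2G41310, chromosome 2, plus strand), the paralog of ARR9, did not change past the test. Its average log2 fold change was -0.07 ± 0.09 (SE, edgeR adjusted p = 0.535), from 6410 ± 862 CPM in mock (SD, n = 14) to 6040 ± 937 CPM with stimulus (SD, n = 15). That level is unlike the rest of the family: 76617 to 174633 counts per library, 0.433 to 0.808% of all counts, placed ARR8 between the highest and the fifth highest of all loci outside the organelle genomes. The annotation places no other locus on the same strand over ARR8, and the antisense lncRNA AT2G09250, which overlaps 299 bases, held 6 to 72 counts. Within the last exon, after the stop codon, the bases of ARR8 between 2576 and 2989 from the start of the gene matched a family of other loci. AT1G15405 and AT1G05163, which share their place on chromosome 1, matched at 71.4% identity over 329 bases, AT4G04565 at 71.2% over 323 bases and AT1G49700 at 81.1% over 380 bases. The family includes AT7SL-1, annotated as an RNA of the signal recognition particle, whose match lies on the strand opposite to its gene model. AT4G04565 held 9014 to 23123 counts per library, AT1G49700 held 480 to 1358 and AT7SL-1 held 1 to 15. AT1G15405 held 65623 to 185359 counts per library, and the ratio of ARR8 to AT1G15405 counts stayed between 0.852 and 1.24. Of the 31-base words of ARR8, 13% also occur elsewhere in the genome, against at most 1.38% for any other member. Where these words lie was not recorded, so they are not tied to the loci named above. How many of the counts of ARR8 came from reads of these or other loci was not tested, so the flat value cannot be read as the behaviour of the ARR8 transcript.

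**Figure D2:**
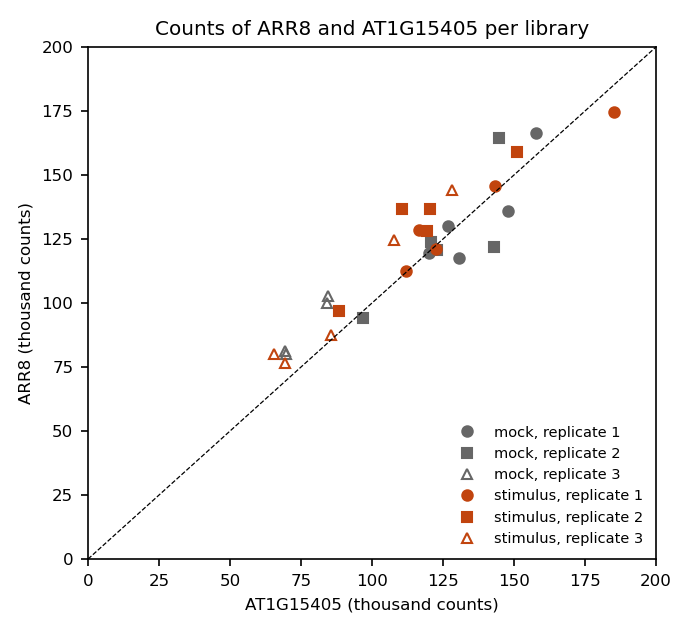
Counts of ARR8 against counts of AT1G15405 in each of 29 distinct libraries, on linear axes from 0, with a dashed line of equal counts; colours and symbols mark treatment and replicate. The points follow the line over their whole range, with ratios from 0.852 to 1.24.

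Per kilobase of exon, the scale on which genes can be compared, the order of the levels is given by replicate set. In stimulated leaves of replicates 1 and 2, ARR7 was the most abundant of the 7 members other than ARR8 at 61.4 ± 7.61 CPM per kb (SD, n = 10), followed by ARR4 at 24.9 ± 3.15. ARR9 (12.3 ± 1.19) and ARR15 (10.6 ± 1.92 CPM per kb) came next and lay within their spread, followed by ARR5 at 7.67 ± 1.33, ARR6 at 5.06 ± 0.683 and ARR16 at 1.59 ± 0.453. In mock leaves of the same replicates the order was another. ARR7 (1.58 ± 0.386), ARR16 (1.23 ± 0.353) and ARR9 (1.13 ± 0.297 CPM per kb; SD, n = 10) lay within their spread, followed by ARR4 at 0.799 ± 0.322, ARR15 at 0.41 ± 0.166, ARR5 at 0.156 ± 0.105 and ARR6 at 0.0491 ± 0.0646. ARR5 and ARR6 were thus the lowest of these 7 genes in mock and lay above ARR16 in every stimulated library of replicates 1 and 2. In stimulated leaves of replicate 3 ARR7 (68.2 ± 5.59 CPM per kb; SD, n = 5) and ARR4 (39.6 ± 1.91) led again. There ARR5 at 16.7 ± 2.69 and ARR9 at 14.4 ± 1.1 lay within their spread, as did ARR6 at 9.5 ± 1.48 and ARR16 at 8.41 ± 0.99, and ARR15 was the lowest at 6.43 ± 1.05.

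Paralogs were also compared by their log2 ratio within a library, on the log2(CPM + 0.5) scale. The ratio of ARR7 to ARR15 was 1.5 ± 0.82 in mock (SD, n = 14) and 2.58 ± 0.46 with stimulus (SD, n = 15), a difference of 1.08 (two-sided permutation test with 100000 resamples, p = 0.00041, adjusted over 5 pairs p = 0.000587). The pseudocount of 0.5 is above the median of ARR15 in mock replicates 1 and 2, which understates the rise of ARR15. In the edgeR fit the pair rose by 3.74 ± 0.45 and 3.78 ± 0.3, and their mean CPM rose 12.1-fold and 12.2-fold, so the ratio is not read as an unequal response. For ARR5 over ARR6 the ratio went from 0.03 ± 0.67 to 0.63 ± 0.21, a difference of 0.6 (permutation p = 0.00047, adjusted p = 0.000587), which shrank to 0.22 (permutation, adjusted p = 0.0943) in replicates 1 and 2 alone. Both genes lay under the pseudocount in mock replicates 1 and 2, where their mean CPM rose 49.3-fold for ARR5 and 103-fold for ARR6, the opposite order to the ratio. No order of this pair is read from the ratio. These tests also treat the hours of a replicate as independent. The ratios of ARR3 to ARR4 and of ARR16 to ARR17 have 1 partner at the limit of detection, and that of ARR8 to ARR9 carries the uncertain ARR8 level, so they show nothing of the pairs.

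At the single hours, with 3 against 3 libraries each, the same genes led. At 6 h 4 members rose, ARR5, ARR6, ARR7 and ARR15, where 6.03% of all genes tested rose. At 7 h there were 5 with ARR9 added, beside 8.9% of all genes. At 8 h only ARR5 and ARR15 passed, 2 members beside 6.54% of genes. At 9 h 4 passed (ARR5, ARR6, ARR7 and ARR15) beside 7.97%, and at 10 h 6 passed with ARR4 and ARR9 added, beside 9.74%. The comparisons at 6 and 7 h share the identical mock column. Without both of these columns ARR9 was called at 6 h in place of ARR6, again 4 members (4.47% of genes higher), and ARR6 and ARR7 were above ARR5 at 6 h, at 5.53 ± 1.7, 5.14 ± 1.14 and 4.95 ± 1.11; at 7 h 6 members were called, with ARR4 added (7.52% of genes higher). With all columns ARR5 was largest at every hour, with log2 fold changes of 5.02, 6.08, 3.73, 5.76 and 6.03 from 6 to 10 h and standard errors of 0.81 to 0.97. ARR15 followed a similar course at 3.71, 4.66, 2.57, 3.87 and 4.11 with standard errors of 0.62 to 0.71. ARR4 had values of 3.02, 3.21, 1.84, 3.16 and 3.8 but standard errors of 1.18 to 1.29 and passed at 10 h alone (edgeR adjusted p = 0.0423). The ARR4 values turned on single mock libraries: without mock replicate 3 of the same hour they were 4.69 at 6 h, 4.7 at 7 h, 5.55 at 9 h and 6.62 at 10 h. The lowest value on leaving out 1 library was 2.57 at 6 h, 2.79 at 7 h and 2.65 at 9 h, each without mock replicate 2 of that hour, and 3.27 at 10 h without mock replicate 1. With the replicate number as a block, 7 members rose at 6 h (17% of genes) and 6 at each of the other hours, ARR4 to ARR7, ARR9 and ARR15 (19.4% of genes at 7 h, 17.2% at 8 h, 19.1% at 9 h and 20.9% at 10 h). The seventh at 6 h was ARR16, at 1.04 ± 0.37 (edgeR, block, adjusted p = 0.0389).

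The values at 8 h depended on 1 mock library. Without mock replicate 3 at 8 h, the log2 fold change at 8 h was 7.28 ± 0.87 for ARR5, 7.52 ± 1.51 for ARR6, 5.29 ± 0.99 for ARR7, 5.17 ± 1.41 for ARR4, 4.48 ± 0.59 for ARR15 and 4.04 ± 0.87 for ARR9, and 6 of 8 members passed (6.27% of 21337 genes higher). The mock group at 8 h then has 2 libraries, both of the replicates with the lower mock levels. These values are therefore not comparable with hours that keep mock replicate 3. Leaving out mock replicate 3 raised the value of ARR4 at the other hours too, as given above. For ARR6 the 2 remaining libraries held 0 and 2 counts. Why the values with all columns were lower at 8 h was not tested.

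**Figure D3:**
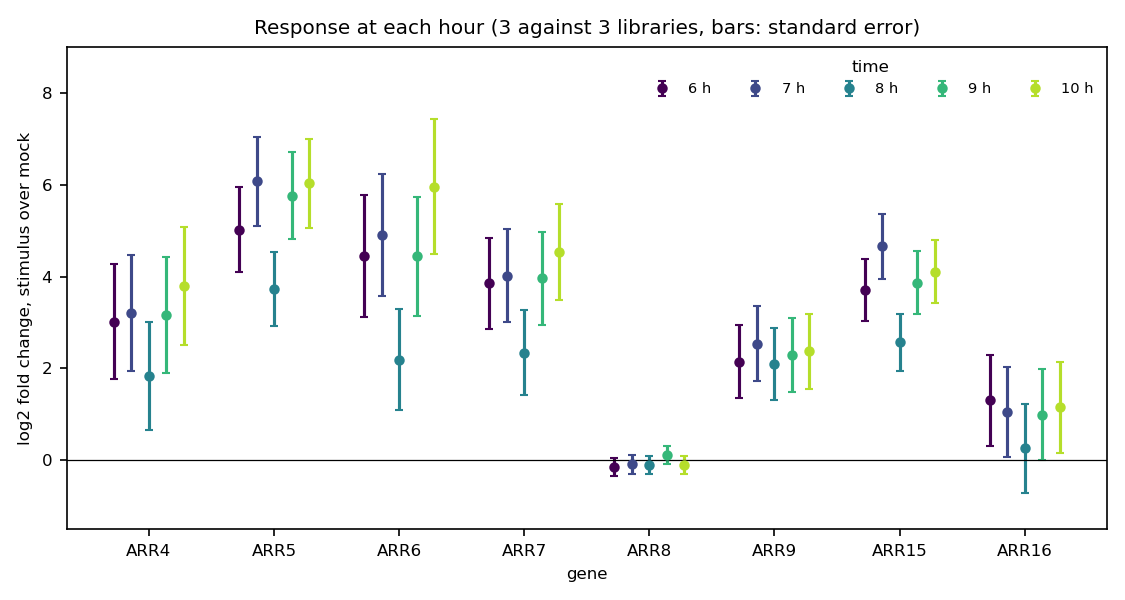
Log2 fold change of stimulus over mock at each hour for the 8 testable members, 3 against 3 libraries, with bars of 1 standard error from the edgeR fit. With all columns used, ARR5 is highest at each hour, ARR8 stays near 0, and the 8 h values are the lowest of every responding gene.

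No change of the response between 6 and 10 h was found in the full set of libraries. The treatment by time interaction called 0 of 8 members with edgeR (none at an unadjusted p under 0.05, and 0 with DESeq2; 0% of all genes). Trends that were linear in time, within mock, within stimulus or as the gap between them, also called 0 members with edgeR and with DESeq2, none at an unadjusted p under 0.05 (0.722%, 1.02% and 0.019% of all genes with edgeR). DESeq2 gave no p for ARR4 and ARR7 in the average contrast, so its 0 calls here may not cover these genes. In replicates 1 and 2 alone, where the spread is smaller, ARR4 fell in mock by 0.42 ± 0.04 per hour on the log2 scale (edgeR adjusted p = 5.27e-06), from 2.3 and 1.93 CPM at 6 h to 0.598 and 0.74 CPM at 10 h. Its level with stimulus rose by 0.09 ± 0.02 per hour (edgeR adjusted p = 0.00514), from 39.5 and 40.9 CPM to 57.8 and 53.5 CPM, and the difference of its trends was 0.5 ± 0.05 per hour (edgeR adjusted p = 3.08e-05). ARR6 was also called in mock (edgeR adjusted p = 0.00784), but its counts there were 0 to 5 per library, near or under the limit of detection, so no trend is read from it, nor from the difference of its trends. In that fit 2 of 8 members changed in mock (22.8% of genes), 1 in stimulus (16.6%), 2 (again ARR4 and ARR6) in the difference (7.71%) and 1, ARR4, in the interaction (2.83%).

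The replicate sets differed in the mock level of these genes. In mock, 7 of 8 tested members were higher in replicate 3 than in replicates 1 and 2 (33% of all genes were called higher and 65.5% in either direction). The log2 difference was 4.61 ± 0.44 for ARR6, 3.7 ± 0.18 for ARR4, 2.94 ± 0.21 for ARR7, 2.37 ± 0.13 for ARR9, 2 ± 0.49 for ARR5, 1.72 ± 0.31 for ARR15 and 1.55 ± 0.19 for ARR16 (SE, edgeR, adjusted p from 3.89e-14 to 0.00111). For 5 members every mock library of replicate 3 lay above every mock library of replicates 1 and 2, as for 19.3% of genes. In mock replicates 1 and 2 ARR6 was near or under the limit of detection, so the size of its difference is uncertain. The call for ARR5 rested on the 8 h library: without it the difference was 0.41 ± 0.44 (edgeR adjusted p = 0.434), while the other 6 still passed (30.6% of genes higher), among them ARR4 at 3.33 ± 0.15, ARR6 at 3.4 ± 0.48 and ARR15 at 0.99 ± 0.29. ARR8 was lower in replicate 3 by 0.21 ± 0.11 without passing (edgeR adjusted p = 0.0798), and passed with the replicate block (edgeR, -0.28 ± 0.11, adjusted p = 0.0306). Replicate 3 is 1 replicate number followed over 5 times, so these p-values do not cover the spread between independent replicates of that kind. Its identical mock columns also both entered the fit.

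The response differed between the sets as well. The set by treatment term passed for 6 of 8 members (49.2% of all genes). Both identical mock columns entered this fit, and the hours of replicate 3 are not independent. Its standard errors and p-values may therefore be too small. It was negative for ARR6 at -3.7 ± 0.49, ARR4 at -3.02 ± 0.23, ARR7 at -2.79 ± 0.26, ARR15 at -2.42 ± 0.35 and ARR9 at -2.15 ± 0.17, a smaller log2 rise in replicate 3. It was positive for ARR16 at 0.88 ± 0.26 (edgeR adjusted p = 0.00758), although not past the test without the identical columns (0.61 ± 0.3, edgeR adjusted p = 0.101). ARR5 did not pass at -0.87 ± 0.52 (edgeR adjusted p = 0.173); without the identical columns it did, at -1.76 ± 0.58 (edgeR adjusted p = 0.0153), and without mock replicate 3 at 8 h its sign was positive, at 0.71 ± 0.46 (edgeR adjusted p = 0.216). Within replicates 1 and 2, 6 of 8 members rose (32.1% of genes), and within replicate 3, 7 of 8 rose (36.6% of genes). Within replicates 1 and 2 the log2 fold change was 7.05 ± 0.31 for ARR6, 5.76 ± 0.29 for ARR5, 5.34 ± 0.17 for ARR7, 5.03 ± 0.15 for ARR4, 4.74 ± 0.2 for ARR15, 3.45 ± 0.11 for ARR9 and 0.36 ± 0.17 for ARR16, the last not past the test (edgeR adjusted p = 0.069). Within replicate 3 it was 4.88 ± 0.32 for ARR5, 3.35 ± 0.26 for ARR6, 2.55 ± 0.19 for ARR7, 2.33 ± 0.25 for ARR15, 2.01 ± 0.17 for ARR4, 1.3 ± 0.13 for ARR9 and 1.24 ± 0.2 for ARR16. Without mock replicate 3 at 8 h the values within replicate 3 were 6.37 ± 0.29 for ARR5, 4.17 ± 0.35 for ARR6, 3.03 ± 0.14 for ARR7, 2.97 ± 0.24 for ARR15, 2.35 ± 0.14 for ARR4, 1.54 ± 0.12 for ARR9 and 1.49 ± 0.21 for ARR16. Within replicate 3 ARR5 had the largest value, with or without that library. ARR6 had the largest value in replicates 1 and 2, where its mock libraries held 14 counts in all. That mock level, at a mean of 0.0717 CPM, was under the limit of detection. The size of the ARR6 rise there, and of its set by treatment term, is therefore uncertain. No order of ARR6 and ARR5 is read from these replicates.

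For ARR4, ARR6, ARR7 and ARR9 the mock level was higher in replicate 3 and the stimulated mean was not lower. The rise is measured against the same mock libraries, so a higher mock level lowers it by construction. The smaller rise and the higher mock level are therefore not separate results. With stimulus, the mean CPM of replicate 3 was 1.59 times that of replicates 1 and 2 for ARR4, 1.88 times for ARR6, 2.18 times for ARR5 and 5.28 times for ARR16, all without overlap. For ARR7 (1.11 times) and ARR9 (1.17 times) the stimulus groups overlapped. ARR15 went the other way, with a mean of 6.94 ± 1.13 CPM in replicate 3 (SD, n = 5) and 11.4 ± 2.07 CPM in replicates 1 and 2 (SD, n = 10), also overlapping. These stimulus levels were compared by their ranges only. The replicate sets differ in many other genes too, and no label says what else set them apart.

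**Figure D4:**
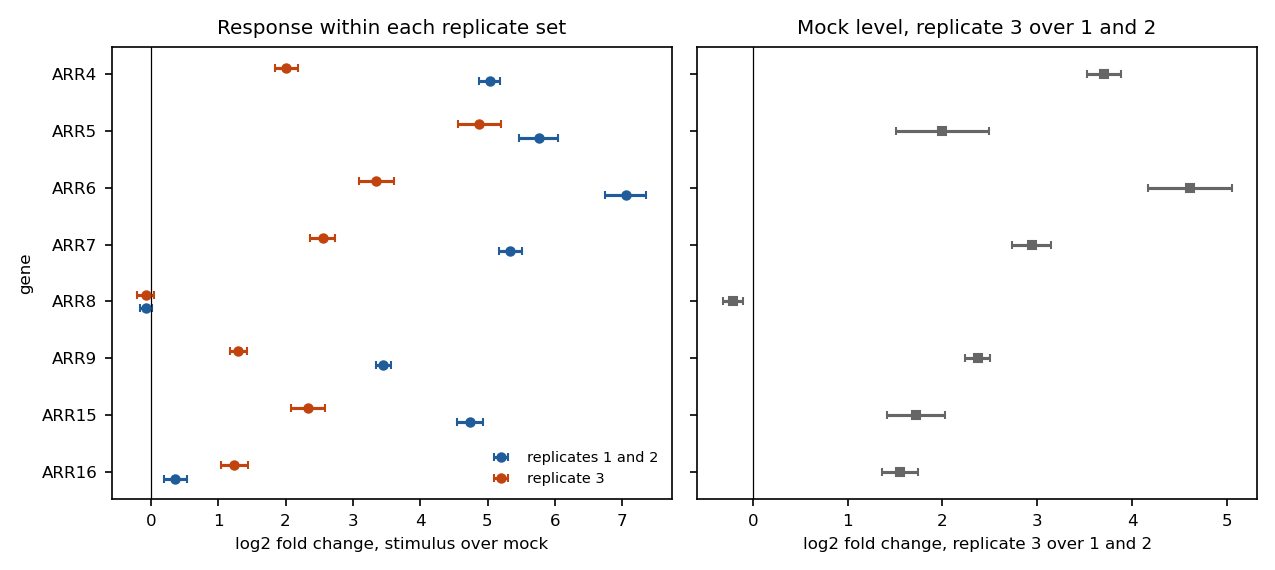
Left, log2 fold change of stimulus over mock within replicates 1 and 2 and within replicate 3; right, log2 difference in mock between replicate 3 and replicates 1 and 2; bars are 1 standard error from the edgeR fit. For ARR4, ARR6, ARR7, ARR9 and ARR15 the response is smaller in replicate 3 and the mock level higher, and ARR16 responds more in replicate 3. The responses on the left are measured against the mock levels on the right, so the panels are not independent.

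Mock replicate 3 at 8 h held transcripts of ARR4 to ARR7, ARR9, ARR15 and ARR16 at levels between the other mock and the stimulus libraries of replicate 3. Against the stimulus libraries of replicates 1 and 2, ARR4 and ARR6 lay inside the range and ARR16 lay above it. ARR5 stood at 3.58 CPM, 10.5 times the mean of the other 3 mock libraries of replicate 3 (0.15 to 0.549 CPM). ARR6 stood at 6.65 CPM (7.22 times), ARR15 at 4.22 CPM (4.66 times), ARR7 at 32.1 CPM (4.25 times), ARR4 at 50.6 CPM (3.17 times) and ARR16 at 14 CPM (2.3 times). On the log2(CPM + 0.5) scale, 52 of 21052 tested genes (0.247%) lay at least 2-fold above the mean of the other mock libraries of replicate 3, and 6 of the 8 tested members were among them. Of 30 other cytokinin pathway genes tested, AHK4 (45 CPM against 11.2 to 18.4) and CKX4 (7.86 CPM against 1.4 to 2.63) were also among the 52. The same count for the other mock libraries of replicate 3 gave 56 genes for the 6 h library (labelled also 7 h), 13 at 9 h and 78 at 10 h, with 0 members in each. Of 3 genes induced by auxin, picked after their values were seen, none lay above the range of the other mock libraries of replicate 3. As picked genes they do not stand for the genes induced by auxin, which were not surveyed here. GH3.3, an auxin-conjugating enzyme, was at 0.173 CPM in the 8 h library and at 988 to 1120 CPM with stimulus, GH3.2 at 0.289 CPM against 292 to 463, and ACS4, an ethylene synthesis enzyme, at 0.173 CPM against 26.4 to 59.9. CKX6, which rose with stimulus to 45 to 52.1 CPM, was at 3.35 CPM, 2 times the mean of the other mock libraries of replicate 3 (1.29 to 2.11 CPM) and above mock replicates 1 and 2 (1.11 to 2.19 CPM). This comparison was chosen after the values had been seen.

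**Figure D5:**
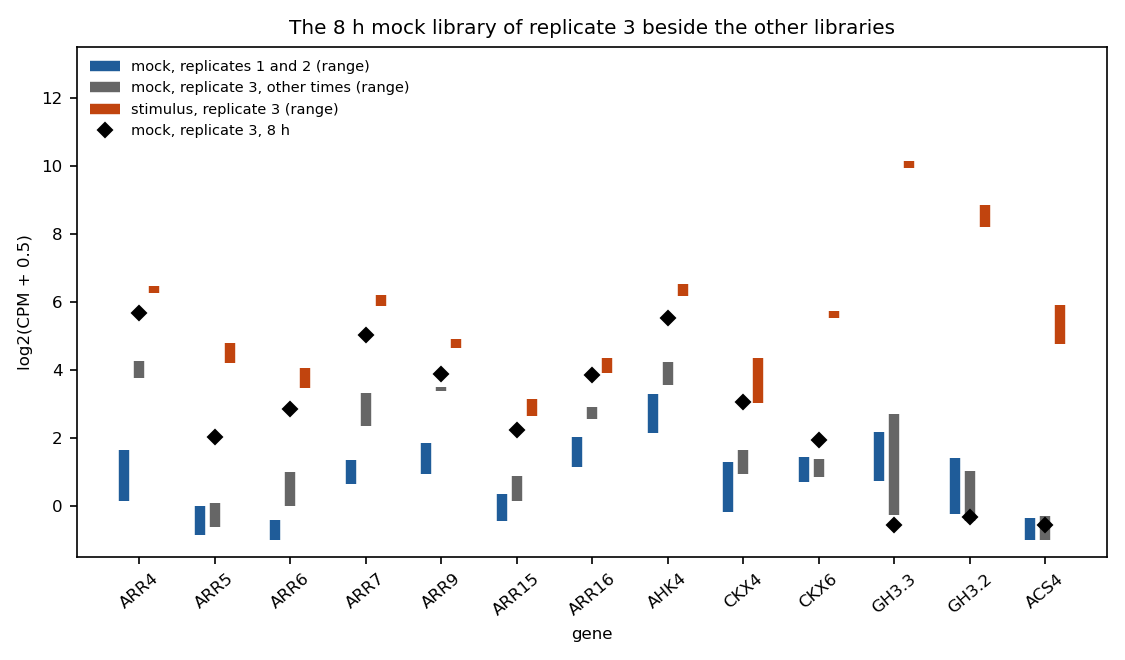
Level of 7 type-A genes, of AHK4, CKX4 and CKX6, and of 3 genes induced by auxin, as log2(CPM + 0.5); bars span the lowest to the highest library of each group and the diamond is mock replicate 3 at 8 h. The diamond lies between the mock and stimulus bars of replicate 3 for ARR4 to ARR7, ARR9, ARR15, ARR16 and AHK4. For CKX4 it lies just inside the stimulus bar (7.86 CPM against 7.65 to 19.7). It lies under both mock bars for GH3.3 (0.173 CPM), and inside the mock bar of replicate 3 for GH3.2 and ACS4.

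The rest of the cytokinin pathway was read in the same average contrast, beside 29.7% of all genes called higher, 27% called lower and a median of 0.02. Among 3 receptors, AHK4 rose by 2.5 ± 0.31 on the log2 scale, while AHK2 fell by 0.78 and AHK3 by 0.26 (list median -0.26). AHK3 went from a mean of 96.1 to 72.9 CPM in replicates 1 and 2 and from 74.5 to 77.7 CPM in replicate 3. Of 6 phosphotransfer genes, 2 rose, 1 fell and the median was 0.39; AHP6, a pseudo-phosphotransfer protein that inhibits signalling, rose by 3.9 ± 0.35 from 13 counts in all over the 14 mock libraries, AHP5 rose by 0.7 and AHP4 fell by 0.9. With the replicate block 5 of the 6 passed (69.2% of all genes in either direction), 3 of them higher (36.3%). AHP5 went from a mean of 4.02 to 4.83 CPM in replicates 1 and 2 and from 3.73 to 9.48 CPM in replicate 3. Of the 11 type-B regulators, which activate the type-A genes, 5 could be tested: ARR10 rose by 0.31 ± 0.1, ARR14 fell by 0.89 ± 0.22 and the median was 0.07. Neither of the 2 type-C regulators passed the count filter.

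Cytokinin oxidases, response factors and KMD proteins also moved. Of 7 cytokinin oxidases, which degrade cytokinin, 6 could be tested, 4 rose and 1 fell, with a median of 2.26. CKX3 rose by 5.58 ± 0.3, CKX6 by 5.18 ± 0.15 and CKX1 by 2.49 ± 0.44, and CKX7 fell by 0.44. CKX1 went from a mean of 0.224 to 1.4 CPM in replicates 1 and 2. In replicate 3 it went from 0.0763 to 0.202 CPM, near the limit of detection. All 6 cytokinin response factors, AP2-type transcription factors, passed, 5 higher and 1 lower, with a median of 1.02. CRF5 rose by 2.44 ± 0.12, CRF6 by 1.62 ± 0.12 and CRF3 by 1.12 ± 0.12, and CRF1 fell by 0.97. CRF2 went opposite ways by set, from a mean of 8.8 to 15.4 CPM in replicates 1 and 2 and from 7.46 to 5.07 CPM in replicate 3. Of 4 KMD F-box proteins, which target type-B regulators for degradation, KMD1 rose by 2.2 ± 0.43, KMD2 rose by 1.56 ± 0.44 and KMD4 fell by 0.53, with a list median of 0.52. In replicates 1 and 2 alone, 1 of the 4 rose and 2 fell, with a median of 0.06 (33.1% of all genes higher and 32.2% lower). KMD2 went from a mean of 1.99 to 2.55 CPM in replicates 1 and 2 and from 3.21 to 16.1 CPM in replicate 3. KMD3 went from 32.3 to 15.9 CPM in replicates 1 and 2 and from 7.11 to 17.5 CPM in replicate 3.

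The 6 responding members resembled each other closely over the 29 distinct libraries. As a description of likeness, the mean absolute difference of their z-scored log2 CPM was 0.145 (ARR7 and ARR9) to 0.352 (ARR4 and ARR15) over their 15 pairs. It was 0.788 to 1 between these genes and ARR16, and 1.23 to 1.37 between ARR8 and the other members. The median gene lay 1.13 from ARR5. Outside the family, the genes nearest to ARR5 were SAUR29 (0.14), AT1G29450 (0.146), SAUR20 (0.154), TRM25 (0.155) and AT1G67050 (0.159). SAUR29 went from a mean of 0.647 CPM in mock to 23.2 CPM with stimulus, and TRM25 from 1.65 to 26.5 CPM. All libraries share the treatment contrast, so any gene with a large and even response lies close on this measure.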

How the data were processed

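Raw read counts for each locus were deposited by the authors, from ribosome-depleted, stranded total RNA libraries. The submitters' processing notes name BWA and TAIR10, with no role. How counting was done is not given in the sources used here. Gene positions, promoters and motifs were read from TAIR10.1 with its RefSeq annotation; the count table holds no coordinates. Counts were filtered with filterByExpr (21052 genes left), scaled by TMM and fitted with 1 mean per group over all 30 libraries by edgeR 4.0.16 in R 4.3.3, with Benjamini-Hochberg adjustment over all genes and a threshold of 0.05. A second model added the replicate set (3 against 1 and 2) and its interaction with treatment. The standard error is the size of the log2 fold change divided by the root of its F statistic. Similarity of ARR8 to other loci was searched with blastn at an expectation value of 1e-05. The scripts were tested on simulated counts. All 10 members are named, with at most 3 pathway genes per list in each direction and the 5 genes nearest to ARR5. Members and lists were chosen with earlier results of these data known.

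Same-numbered mock and stimulus libraries deviated together from their group means, with correlations of 0.137 to 0.454 in 15 of 15 pairs (threshold 0.1). Libraries of different number were not compared, and the gap between replicate 3 and the others can by itself give such correlations. Pairing is therefore not established. The main fit has no replicate block, and blocked values are given where they change a call. No label says that replicates were separate batches of plants; p-values cover only the spread among these libraries, which may be technical, and intervals and floors cover counting error only.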

Additional observations from a re-analysis of the deposited data

Results flagged for a closer look

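The response differed between replicate 3 and replicates 1 and 2 by the set by treatment term of the edgeR fit for ARR4 (-3.02), ARR6 (-3.7), ARR7 (-2.79), ARR9 (-2.15), ARR15 (-2.42) and ARR16 (0.88), on the log2 scale. The ARR6 term rests on mock counts near or under the limit of detection in replicates 1 and 2.

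Among the 4 mock libraries of replicate 3, the 8 h library stood far above the others, by the gap to its nearest neighbour relative to the range, for ARR4 (50.6 CPM), ARR5 (3.58 CPM) and ARR6 (6.65 CPM). These are 3 of 32 groups of 4 to 10 libraries examined, where chance flags about 1 in 20. All 3 flags fall on the same library, so they are not independent and no excess over chance is read.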

How the results depend on the processing

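With counts summed over times, 2 members were called in the average contrast (4.56% of all genes higher). With the replicate block added to it there were 4 (9.41% of genes higher). The replicate block raised the calls at 6 h from 4 to 7 (6.03 and 17% of genes higher) and at 8 h from 2 to 6 (6.54 and 17.2%). It raised the phosphotransfer calls from 3 to 5 (56.7 and 69.2% of genes in either direction), and the ratio of ARR16 to ARR17 past its test at 0.59. At 8 h the count was 6 without mock replicate 3 (6.27% of genes higher) and 6 in replicates 1 and 2 alone (18.2%). It was also 6 without that mock library and the identical columns (7.19%), a setting chosen after seeing the data. With only the libraries of 8 h edgeR called 0 (2.05% of genes higher), with 3 at an unadjusted p under 0.05. In replicates 1 and 2 alone, 1 member was called for the interaction (2.83% of genes) and 2 for the mock trend (22.8%). There 1 was called for the stimulus trend (16.6%) and 2 for the difference of trends (7.71%), and the ratio of ARR5 to ARR6 was 0.22. With upstream bases only, 5 members held AAGATT. DESeq2 called 5 members in the average contrast (29.8% of genes higher), with no p for ARR4 and ARR7. The cause of these differences was not tested.

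Leaving out 1 library at a time gave 6 to 7 calls in the average contrast, 2 to 5 at 6 h (2 without mock replicate 1 or 2 at 6 h), 3 to 6 at 7 h (3 without mock replicate 1 or 2 at 7 h), 2 to 6 at 8 h, 2 to 6 at 9 h (2 without mock replicate 1 at 9 h) and 4 to 6 at 10 h. It gave 6 to 7 calls for the response by replicate set (45.1 to 48.9% of genes in either direction), 6 to 8 for the mock level by set (60.6 to 65.7%), and 0 for the interaction and the trends. The share of all genes called higher was 27.6 to 29.8% in the average contrast. By hour it was 2.99 to 6.68% at 6 h, 5.69 to 10.1% at 7 h, 4.3 to 7.53% at 8 h, 5.2 to 8.79% at 9 h and 6.63 to 10.7% at 10 h. The paralog differences ranged from 0.51 to 0.78 for ARR16 and ARR17, 0.48 to 0.68 for ARR5 and ARR6 and 1.01 to 1.19 for ARR7 and ARR15. Of 3472 values of a member in a contrast under an alternative, 3351 kept their side of the threshold, 50 lost it, 71 gained it and 0 called values changed sign.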
